A study of Mus musculus with 10 samples.

Results

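The 10 genes described here carry glucose into the cell, commit it to glycolysis and export the lactate made from it. They were chosen by symbol: the glucose carrier gene Slc2a1, the hexokinase genes Hk1 and Hk2, the phosphofructokinase genes Pfkm, Pfkl and Pfkp, the regulator gene Pfkfb3, the pyruvate kinase gene Pkm, the lactate dehydrogenase gene Ldha and the lactate carrier gene Slc16a3. All 10 were found among the 22180 genes measured. Their level in 5 aortas of ApoE/IL-17 double knockout mice was compared with that in 5 aortas of ApoE knockout mice. Both groups lacked ApoE, the apolipoprotein through which the liver takes up lipoprotein remnants, and the double knockout lacked the cytokine IL-17 as well. The double knockout came from a cross of IL-17-/- with ApoE-/- mice. All 10 mice were males on a C57BL/6 background. High fat feeding began at 8 weeks of age and lasted 3 weeks, and the aorta was collected at an age of 11 weeks. The comparison asks what the absence of IL-17 does to the aorta in early hyperlipidemia. Each aorta was hybridized to 1 Affymetrix Mouse Gene 2.0 ST array, and a value is on a log2 scale, so that a difference of 1 is a doubling.

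Glycolysis splits glucose into pyruvate and yields ATP without oxygen. Hexokinase traps glucose as glucose 6-phosphate, phosphofructokinase makes the step that commits sugar to the pathway, and Pfkfb3 makes the sugar bisphosphate that switches phosphofructokinase on. Lactate dehydrogenase turns pyruvate into lactate, which leaves the cell with a proton through monocarboxylate carriers. In the artery, endothelial cells draw much of their ATP from this route, activated macrophages raise it, and contracting smooth muscle also releases lactate.

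The promoters of 3 members are shown because these are the members that passed the test and have a single start in the RefSeq table, of which Pfkp was higher and Pfkl and Slc16a3 were lower in the double knockout. Each run is the 250 bases before the gene's start on the gene's own strand, 5′ to 3′, from RefSeq on build GRCm38.p6. That of Pfkp is chr13:6648772-6649021 on the minus strand, that of Pfkl is chr10:78009808-78010057 on the minus strand and that of Slc16a3 is chr11:120948817-120949066 on the plus strand. Capitals mark ACGTG or GCGTG on either strand, the core that hypoxia-inducible factors (HIF) are known to bind. The reverse complements are CACGT and CACGC, and ACGTG also lies within the E-box CACGTG.
Pfkp: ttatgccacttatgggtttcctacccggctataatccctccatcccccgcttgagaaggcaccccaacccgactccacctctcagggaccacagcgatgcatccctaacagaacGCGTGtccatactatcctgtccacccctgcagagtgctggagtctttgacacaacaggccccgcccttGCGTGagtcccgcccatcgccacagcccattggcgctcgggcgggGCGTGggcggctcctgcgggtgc
Pfkl: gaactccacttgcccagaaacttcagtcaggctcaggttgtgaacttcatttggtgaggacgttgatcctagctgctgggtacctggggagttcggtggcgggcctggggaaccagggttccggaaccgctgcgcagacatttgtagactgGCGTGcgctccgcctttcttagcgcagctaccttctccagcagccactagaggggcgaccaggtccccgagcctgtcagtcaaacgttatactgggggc
Slc16a3: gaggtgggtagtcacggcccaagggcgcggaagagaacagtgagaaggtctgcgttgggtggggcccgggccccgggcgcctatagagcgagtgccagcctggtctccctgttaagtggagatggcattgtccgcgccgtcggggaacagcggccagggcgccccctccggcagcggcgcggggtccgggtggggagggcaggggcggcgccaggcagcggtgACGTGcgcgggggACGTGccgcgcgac
The Slc16a3 window held ACGTG 2 times, those of Pfkp and Pfkl 0 times. GCGTG stood 3 times in the Pfkp window, 1 time in that of Pfkl and 0 times in that of Slc16a3. Over the 17 starts that the table lists for the 10 genes, 9 windows held ACGTG, 8 held GCGTG and 3 held the E-box. Genes with several starts count more than once here, and overlapping Pfkm windows share a GCGTG match. By gene, 7 of the 10 had a window with ACGTG. Of 32851 windows of the same length over all genes, 16.6% held ACGTG, 28.2% GCGTG and 6.02% the E-box. These matches describe letters and show no binding.

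Before the values, the deleted genes and the arrays were looked at. Apoe, deleted in both groups, lay at 6.83 to 7.26 in the double knockout and 6.07 to 6.47 in the ApoE knockout, a difference of 0.67 (SE 0.10, limma adjusted p = 0.0011). Il17a lay at 4.48 to 4.94 in the double knockout and 4.20 to 4.54 in the ApoE knockout and did not pass (0.25, adjusted p = 0.073). It was dim in both groups, and the sources used here do not say whether its probes lie in the deleted part, so these values check nothing about the labels. Array medians ran from 5.95 to 6.03 in the double knockout and from 5.76 to 5.80 in the ApoE knockout, and arrays correlated over genes at 0.970 to 0.987 between the groups and 0.986 to 0.993 within them. Blood cell markers separated the groups, with 8 of 10 erythroid markers lower in the double knockout and none higher (mean log2 level 6.15 to 6.46 against 7.38 to 7.90). The protocols given with the ApoE knockout samples speak of caspase-1 deficient mice and not of IL-17, and name no scan batch and no way of cleaning the aorta of fat. If the groups were run apart, batch and genotype cannot be told apart.

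Between the double knockout and the ApoE knockout, the genes of the set differed in both directions. Pfkp, the platelet-type phosphofructokinase, was higher in the double knockout. Pfkl, the liver-type form, Pfkfb3 and the lactate carrier Slc16a3 were lower. Of the 10 genes, 1 rose, 3 fell and 6 did not pass an adjusted p of 0.05 in limma, while 30.3% of all 22180 genes passed, 22.8% higher and 7.53% lower. Among the 12897 genes whose mean lay above 5.81 in both groups, 23.6% passed, 12.8% higher and 10.8% lower. That level is the 95th percentile of the means of 1428 olfactory, vomeronasal and taste receptor genes, sensory genes of nose and tongue, and all 10 members lay above it in both groups. The median difference of the members was -0.17, against 0.10 over all genes, and 8 of the 10 differences were below 0. Set against the median of all genes, Pfkp stood at 0.32 and Pfkl at -0.65. Without the lowest 40% of genes by mean level the median over genes was 0.007, so the 0.10 owes much to dim genes. Which reading is closer for the members was not tested. After quantile normalization the median over all genes was -0.02, and Hk1 passed as lower (-0.22, limma adjusted p = 0.041). Pfkl and Pfkfb3 did not pass there (limma adjusted p = 0.069 and 0.080). The groups did not overlap for 2 members, Pfkp (higher) and Hk1 (lower), and for 20.4% of all genes (15.6% higher and 4.8% lower). The values come from whole aortas, where fewer cells of a type and less RNA per cell cannot be told apart.

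**Figure D1:**
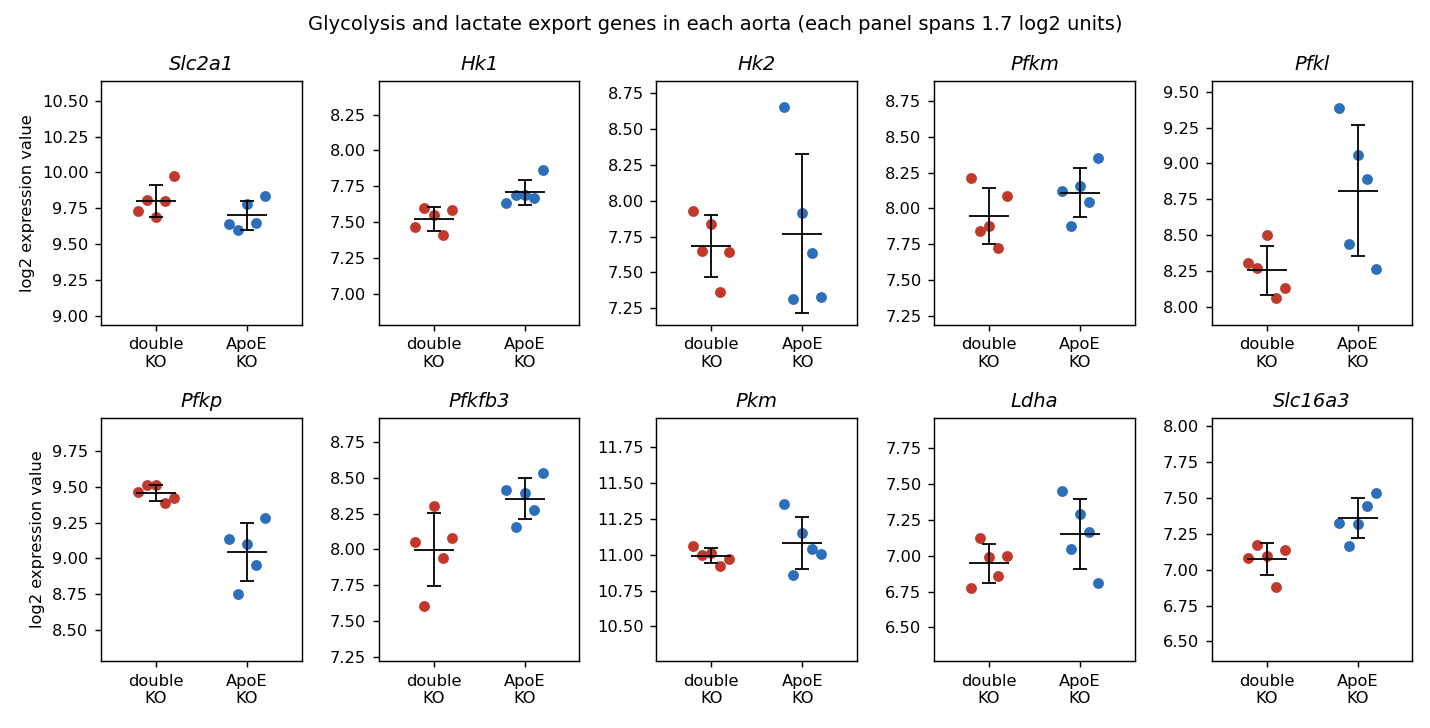
Log2 expression value (vertical axis) of each of the 10 genes in the 5 double knockout aortas (red, left) and the 5 ApoE knockout aortas (blue, right), with the group mean and SD in black. Each panel spans the same number of log2 units. Every double knockout value of Pfkp lies above every ApoE knockout value, and Hk2 and Pfkl spread most in the ApoE knockout.

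Glucose entry was examined first. Slc2a1 encodes GLUT1, the carrier for basal glucose uptake in most cells. It had values of 9.73, 9.81, 9.69, 9.80 and 9.97 in the double knockout aortas, against 9.64, 9.60, 9.78, 9.64 and 9.84 in the ApoE knockout aortas. The groups overlapped, and the difference of 0.10 (SE 0.08, 95% interval -0.07 to 0.27) did not pass (adjusted p = 0.34). When each array was centred on its median, the difference was -0.10. Centring takes the same amount off the difference of every gene, bright or dim. The upper quartiles of the arrays overlapped before it, at 7.59 to 7.66 in the double knockout and 7.55 to 7.62 in the ApoE knockout. After it the median difference of all genes was -0.11, so it can push bright genes too low. Slc2a3 encodes GLUT3, a carrier of high affinity used by neurons, leukocytes and platelets. It had values of 6.02, 6.12, 6.00, 5.97 and 6.10 in the double knockout aortas, against 7.02, 7.11, 7.19, 6.82 and 6.98 in the ApoE knockout aortas. The groups lay far apart, and Slc2a3 fell by 0.98 (SE 0.08, adjusted p = 3.02e-05). Markers of cells that use GLUT3 were read beside it. All 10 measured platelet markers fell, with mean log2 levels of 7.43 to 8.00 in the double knockout and 8.85 to 9.41 in the ApoE knockout. Of the neutrophil markers 5 of 12 fell and 1 rose (5.99 to 6.27 against 6.37 to 7.56, with Camp, Mpo and Elane at the receptor gene level), and of the T cell markers 6 of 11 fell and none rose (6.16 to 7.20 against 6.77 to 8.75). Of the macrophage markers 1 of 11 fell and none rose (8.69 to 9.62 against 9.13 to 9.48). Of the B cell markers 4 of 9 fell and none rose (5.73 to 6.04 against 6.475 to 7.23, with Cr2 at the receptor gene level). The part of these cells in the Slc2a3 result was not tested. Slc2a4, the insulin-responsive carrier GLUT4 of muscle and fat, ranged from 7.79 to 8.68 in the double knockout and from 7.88 to 9.38 in the ApoE knockout and did not pass (difference -0.35, SE 0.27, adjusted p = 0.34).

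Neither hexokinase gene passed the test, though the values of Hk1 did not overlap between the groups. Hk1 is the form most cells express. It had values of 7.46, 7.59, 7.55, 7.41 and 7.59 in the double knockout aortas, against 7.63, 7.69, 7.69, 7.67 and 7.86 in the ApoE knockout aortas. All double knockout values lay below the lowest ApoE knockout value by a small step, with a difference of -0.19 (SE 0.07, adjusted p = 0.063). It passed after quantile normalization (-0.22, adjusted p = 0.041) and after centring (-0.39, adjusted p = 0.0041). Hk2, the insulin-responsive form of muscle and fat, had values of 7.92, 7.65, 7.84, 7.36 and 7.64 in the double knockout aortas, against 8.66, 7.31, 7.92, 7.64 and 7.32 in the ApoE knockout aortas. The ApoE knockout values reached both below and above the double knockout values, with replicate 1 highest of all 10. The difference was -0.09 (SE 0.23, 95% interval -0.59 to 0.42, adjusted p = 0.80), and without ApoE knockout replicate 1 it was 0.14 (adjusted p = 0.51).

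Of the phosphofructokinase genes, Pfkp was called higher, Pfkl was called lower close to the threshold, and Pfkm did not pass. Pfkp had values of 9.46, 9.51, 9.51, 9.39 and 9.42 in the double knockout aortas, against 9.13, 8.75, 9.10, 8.96 and 9.28 in the ApoE knockout aortas. Every double knockout aorta was above every ApoE knockout aorta, and Pfkp rose 1.33-fold (log2 difference 0.41, SE 0.09, adjusted p = 0.0083). Its SD was 0.06 in the double knockout and 0.20 in the ApoE knockout (n = 5 each). The call was lost after centring (0.21, adjusted p = 0.12). Pfkl had values of 8.31, 8.27, 8.499, 8.06 and 8.13 in the double knockout aortas, against 9.39, 8.44, 9.06, 8.89 and 8.27 in the ApoE knockout aortas. ApoE knockout replicates 1, 3 and 4 were well above every double knockout aorta, while replicates 2 and 5 lay within the double knockout range. Pfkl fell 1.47-fold (log2 difference -0.55, SE 0.19, adjusted p = 0.046), close to the threshold. The call was lost after quantile normalization (adjusted p = 0.069), without dim genes (adjusted p = 0.052) and without any one of ApoE knockout replicates 1, 3 and 4 or double knockout replicates 1, 2, 4 and 5 (adjusted p from 0.066 to 0.10). Pfkm, the muscle-type form, had values of 8.21, 7.84, 7.88, 7.73 and 8.08 in the double knockout aortas, against 8.12, 7.88, 8.16, 8.05 and 8.35 in the ApoE knockout aortas, which overlap. Its difference of -0.16 (SE 0.11, 95% interval -0.41 to 0.08) did not pass (adjusted p = 0.28), and it passed after centring (-0.37, adjusted p = 0.027).

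Pfkfb3 is the family member with the highest ratio of kinase to phosphatase activity and is known as a driver of glycolysis in endothelial cells. Its values were 8.05, 7.61, 8.30, 7.94 and 8.08 in the double knockout aortas, against 8.41, 8.16, 8.39, 8.28 and 8.53 in the ApoE knockout aortas. In the double knockout, 4 of 5 aortas lay below the lowest ApoE knockout aorta, and replicate 3 lay within the ApoE knockout range. Pfkfb3 fell 1.28-fold (log2 difference -0.36, SE 0.12, adjusted p = 0.044). The call was lost after quantile normalization (adjusted p = 0.080), and without any one of ApoE knockout replicates 1, 3, 4 and 5 or double knockout replicates 1, 2, 4 and 5 (adjusted p from 0.058 to 0.089). Of 12 endothelial markers 2, Tek and Pecam1, fell, none rose and 10 did not pass. Their mean level was 9.30 to 9.76 in the double knockout and 9.56 to 9.86 in the ApoE knockout, which overlap, with no marker at the receptor gene level. Their part in the Pfkfb3 result was not tested.

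The steps from phosphoenolpyruvate to lactate gave no call. Pkm encodes the muscle-type pyruvate kinase in its alternative splice forms, which a value for the whole gene does not separate. It had values of 11.06, 11.00, 11.01, 10.92 and 10.97 in the double knockout aortas, against 11.35, 10.86, 11.15, 11.04 and 11.00 in the ApoE knockout aortas. The double knockout values lay inside the ApoE knockout range (difference -0.09, SE 0.09, 95% interval -0.28 to 0.11, adjusted p = 0.47). Ldha, the subunit that favors lactate formation, had values of 6.77, 7.13, 6.99, 6.86 and 6.998 in the double knockout aortas, against 7.45, 7.05, 7.29, 7.17 and 6.81 in the ApoE knockout aortas. The groups overlapped (difference -0.21, SE 0.12, 95% interval -0.46 to 0.05, adjusted p = 0.20). Both passed as lower after centring (Pkm -0.29, adjusted p = 0.027, and Ldha -0.41, adjusted p = 0.022), a scaling that lowered the difference of every gene.

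Slc16a3 RNA was lower in the double knockout. The gene encodes MCT4, the lactate exporter typical of glycolytic cells, which is known to be induced by hypoxia and by macrophage activation. It had values of 7.08, 7.17, 7.10, 6.88 and 7.14 in the double knockout aortas, against 7.33, 7.17, 7.32, 7.44 and 7.54 in the ApoE knockout aortas. Only ApoE knockout replicate 2 lay within the double knockout range, just under double knockout replicate 2. Slc16a3 fell 1.22-fold (log2 difference -0.29, SE 0.09, adjusted p = 0.027). The call was lost without ApoE knockout replicate 4 or 5 or double knockout replicate 4 (adjusted p from 0.055 to 0.063). It was also lost with the replicate number as a block in the limma fit (adjusted p = 0.053). Of 11 macrophage markers 1, Cd163, fell, none rose and 10 did not pass. Their mean level was 8.69 to 9.62 in the double knockout, a range that holds the 9.13 to 9.48 of the ApoE knockout, with no marker at the receptor gene level, and their part in the Slc16a3 result was not tested. Slc16a7, which encodes the carrier MCT2, moved the other way, with values of 9.97, 9.55, 9.64, 9.81 and 9.76 in the double knockout aortas, against 9.46, 9.13, 9.26, 9.31 and 9.41 in the ApoE knockout aortas. It rose by 0.43 (SE 0.09, adjusted p = 0.0067) with no overlap, a call lost after centring (0.23, adjusted p = 0.072). Emb, the embigin chaperone of MCT2, rose by 0.39 (SE 0.11, adjusted p = 0.018). The Emb call was lost after centring (0.18, adjusted p = 0.21) and with the mean of its probe sets (0.16, adjusted p = 0.26). Bsg, the basigin chaperone of MCT4, lay at 11.69 to 11.77 in the double knockout and 11.81 to 11.93 in the ApoE knockout and did not pass (-0.15, SE 0.06, adjusted p = 0.072). Slc16a1, which encodes the widely expressed carrier MCT1, did not pass either (-0.58, SE 0.29, adjusted p = 0.15).

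**Figure D2:**
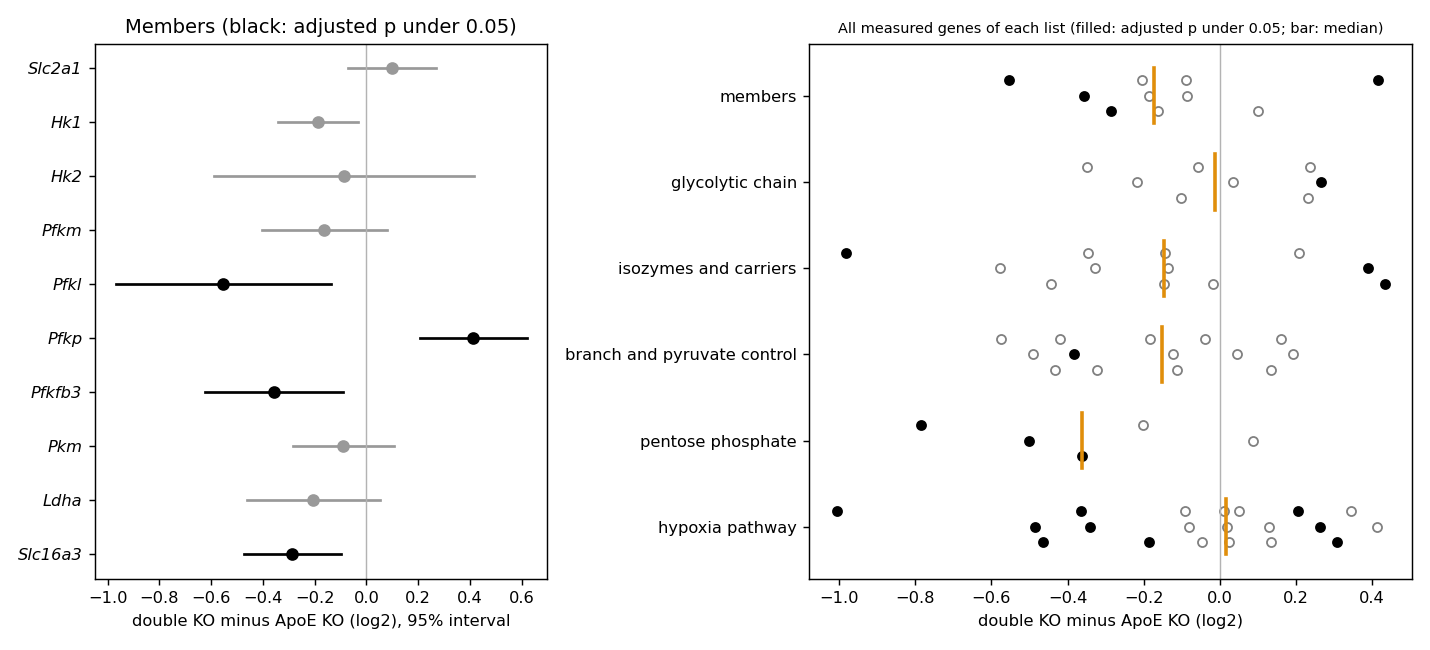
Left, difference of double knockout minus ApoE knockout on the log2 scale (horizontal axis) with its 95% interval for the 10 members, in black where the limma adjusted p is under 0.05. Right, the same difference for each measured gene of the 6 lists, filled where it passed, with the list median as a bar. Pfkp stands apart to the right of the other members, and Slc2a3 and Ddit4 have the lowest differences in the right panel.

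Whether related genes changed by different amounts was tested on the difference of their log2 values within each array, for 8 pairs, by exact permutation, taking every way to split the 10 arrays into groups of 5 (two-sided, smallest possible p 0.0079, Benjamini-Hochberg over the 8 pairs). Pfkp minus Pfkm ran from 1.25 to 1.67 in the double knockout and from 0.88 to 1.01 in the ApoE knockout, with no overlap, so that Pfkp gained 0.58 on Pfkm (SE 0.09, exact p = 0.0079, adjusted p = 0.032). Pfkp minus Pfkl ran from 1.01 to 1.32 in the double knockout and from -0.25 to 1.01 in the ApoE knockout, a gain of 0.97 (SE 0.22, exact p = 0.016, adjusted p = 0.042). The groups overlapped only through double knockout replicate 3 and ApoE knockout replicate 5, at 1.01 each. The Pfkp and Pfkl call was lost without any one of double knockout replicates 1, 2, 4 and 5 (exact test, adjusted p = 0.063 each). Slc2a1 minus Slc2a3 ran from 3.69 to 3.88 in the double knockout and from 2.49 to 2.86 in the ApoE knockout, a gain of 1.08 (SE 0.08, exact p = 0.0079, adjusted p = 0.032). In all, 3 of the 8 pairs passed. For Hk2 minus Hk1 the change was 0.10 (95% interval -0.57 to 0.77), for Ldha minus Ldhb, the subunit that favors pyruvate formation, -0.07 (-0.38 to 0.24), for Slc16a3 minus Slc16a1 0.29 (-0.56 to 1.14), for Pfkl minus Pfkm -0.39 (-0.97 to 0.18) and for Pfkfb3 minus its relative Pfkfb4 -0.04 (-0.53 to 0.46), with adjusted p between 0.32 and 0.89 in the exact test.

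**Figure D3:**
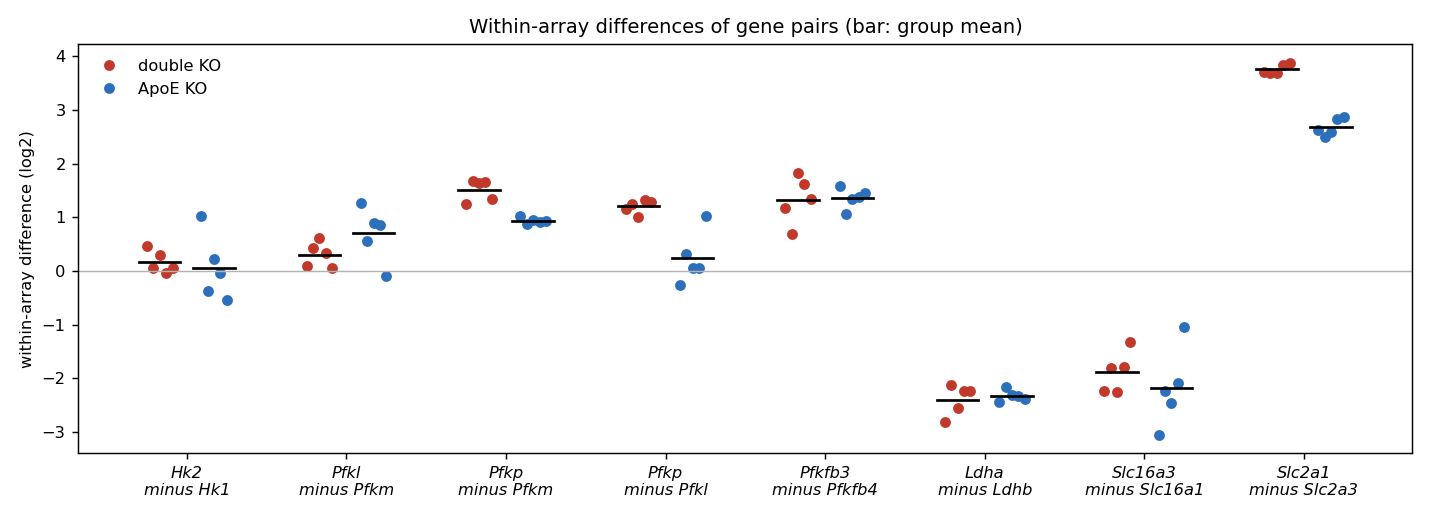
Difference of the log2 values of 2 genes within an array (vertical axis) for 8 pairs of related genes, in the 5 double knockout aortas (red, left) and the 5 ApoE knockout aortas (blue, right), with group means as bars. The groups separate for Pfkp minus Pfkm and Slc2a1 minus Slc2a3. The position of a pair on the axis does not compare the abundance of its genes, since probes differ in brightness.

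The members were set against the mean level of brown adipocyte markers and of smooth muscle markers, and of no other list. This choice was not among the planned tests, and the adjustment over 20 relations does not allow for it. Pfkl and Pfkfb3 passed by Pearson's r and Spearman's rho, and Hk2 and Pkm by rho alone. All 10 markers of brown adipocytes, the heat-producing fat cells found around the aorta, were above the receptor gene level. Ucp1, the uncoupling protein that defines brown fat, ranged from 10.89 to 12.32 in the double knockout and from 10.23 to 12.85 in the ApoE knockout. The mean level of the brown adipocyte markers was 9.88, 9.25, 10.08, 8.91 and 8.81 in the double knockout aortas, against 10.77, 9.46, 10.12, 9.998 and 8.39 in the ApoE knockout aortas. Of these markers 1, Dio2, rose and 9 did not pass. ApoE knockout replicate 1 was highest in this score and in Hk2, Pfkl, Pkm and Ldha, and ApoE knockout replicate 5 was lowest in the score. White adipocyte markers put the aortas of each group in the same order. Their mean levels were 9.54, 9.26, 9.73, 8.975 and 8.72 in the double knockout aortas, against 10.33, 9.21, 9.77, 9.66 and 8.89 in the ApoE knockout aortas. Relations to them were not tested, so the relations below cannot be read as particular to brown fat.

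Over the 10 arrays, with each value taken as its deviation from the group mean, Pfkl followed the brown adipocyte score with Pearson's r of 0.92 (within-group exact permutation p = 0.00014, adjusted p = 0.0028 over 20 relations) and Spearman's rho of 0.89 (exact permutation p = 0.00014, adjusted p = 0.0028). Without the 2 arrays farthest from the median score, r was 0.81. Hk2 had r of 0.82 (exact permutation p = 0.015, adjusted p = 0.087) and rho of 0.84 (exact permutation p = 0.0042, adjusted p = 0.028), with r of 0.72 without those 2 arrays. Pkm had r of 0.69 (exact permutation p = 0.083, adjusted p = 0.18) and rho of 0.81 (exact permutation p = 0.0067, adjusted p = 0.034), with r of 0.58 without them. Pfkp had r of -0.07 (exact permutation p = 0.90, adjusted p = 0.92) and rho of 0.24 (exact permutation p = 0.58, adjusted p = 0.79), with 0.47 without them. The lowest r with this score were those of Slc2a1 (-0.66, exact permutation, adjusted p = 0.15) and Hk1 (-0.58, adjusted p = 0.2). With the brown adipocyte score of each array as a term in the limma fit, an alternative added after the data were seen, the Pfkl difference was -0.40 (SE 0.09, adjusted p = 0.011), that of Pfkp 0.41 (adjusted p = 0.014), that of Slc16a3 -0.30 (adjusted p = 0.030), that of Hk1 -0.21 (adjusted p = 0.039), that of Pfkfb3 -0.35 (adjusted p = 0.065) and that of Hk2 0.08 (adjusted p = 0.70).

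The smooth muscle markers gave another order of the aortas. Their mean level was 11.27, 11.23, 11.29, 11.24 and 11.30 in the double knockout aortas, against 11.07, 10.80, 11.01, 11.05 and 11.31 in the ApoE knockout aortas. Of 12 markers 3, Myh11, Des and Cnn1, rose and none fell, and none lay at the receptor gene level. ApoE knockout replicate 2, lowest in this score, was also lowest in Pfkp, and replicate 5, highest in the score among the ApoE knockout, was highest there in Pfkp, Pfkfb3 and Slc16a3. Pfkfb3 followed the score with r of 0.57 (within-group exact permutation p = 0.0036, adjusted p = 0.036) and rho of 0.87 (exact permutation p = 0.0032, adjusted p = 0.028), and r was 0.67 without the 2 farthest arrays. Pfkp had r of 0.88 (exact permutation p = 0.052, adjusted p = 0.15) and rho of 0.53 (exact permutation p = 0.21, adjusted p = 0.46), and r of 0.01 without the 2 farthest arrays, so that its relation rests on those. With the smooth muscle score as a term, also added after the data were seen, the Pfkp difference was 0.20 (SE 0.09, adjusted p = 0.20) and that of Pfkl -0.50 (SE 0.27, adjusted p = 0.27). Those of Pfkfb3 (-0.55, adjusted p = 0.048) and Slc16a3 (-0.45, adjusted p = 0.026) passed in that fit, in which 1398 genes of all were higher and 411 lower.

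**Figure D4:**
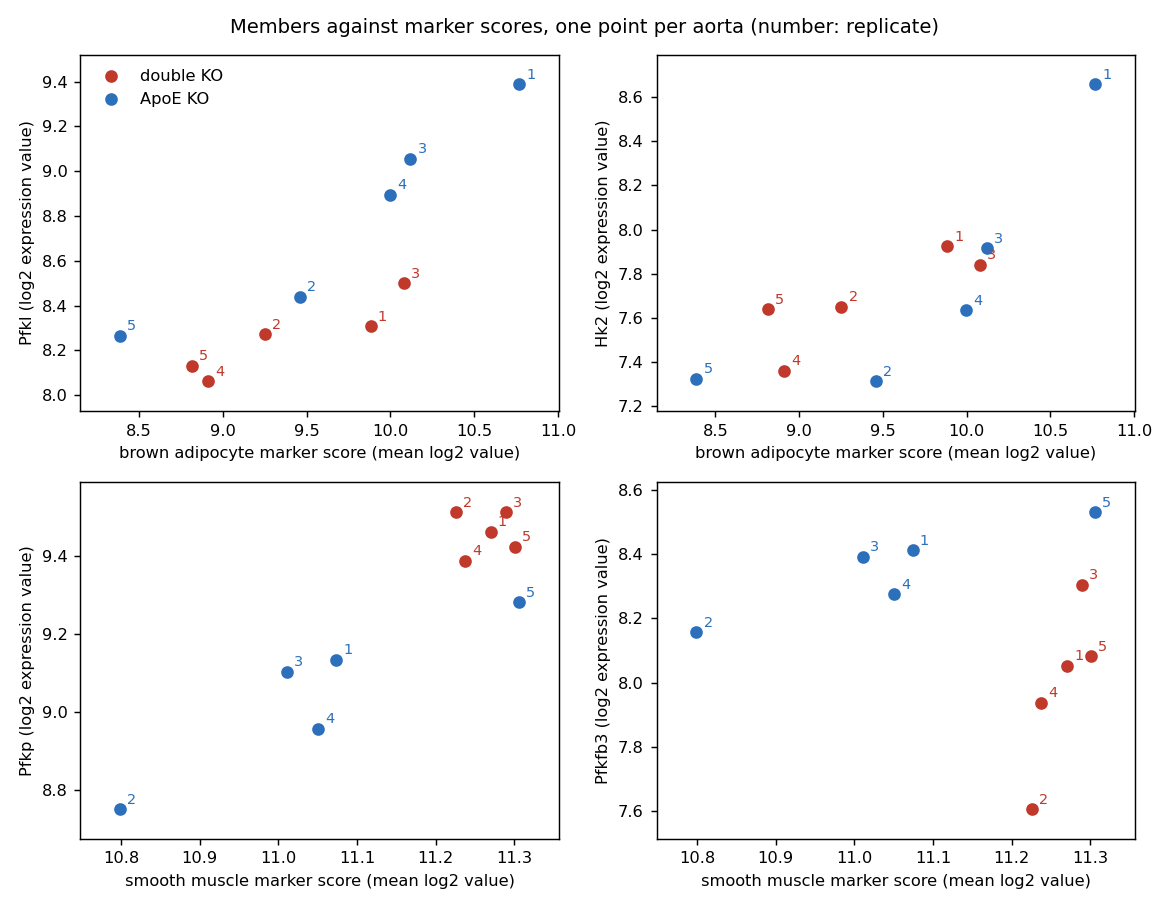
Log2 expression value of Pfkl and Hk2 (vertical axes) against the mean log2 value of the brown adipocyte markers (top), and of Pfkp and Pfkfb3 against that of the smooth muscle markers (bottom), with 1 point for each double knockout (red) or ApoE knockout (blue) aorta and its replicate number. Pfkl and Hk2 are highest in ApoE knockout replicate 1, where the brown adipocyte markers are highest, and Pfkp is lowest in ApoE knockout replicate 2, where the smooth muscle markers are lowest.

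The genes most like Pfkp and Pfkl over the aortas were looked up among the 13498 other genes with a mean above the receptor gene level, by Pearson's r of the deviations from the group means over the 10 arrays. For Pfkp they were Abcc1 (r 0.95), a glutathione conjugate exporter, 6330415G19Rik (0.95) and Gucy1a1 (0.95), a subunit of the nitric oxide receptor of smooth muscle. For Pfkl they were Pdhb (0.99) and Pdha1 (0.99), the E1 subunits of pyruvate dehydrogenase, and Hibch (0.99), an enzyme of valine breakdown in mitochondria. Pdhb and Pdha1 had differences of -0.42 and -0.49 and did not pass (adjusted p = 0.17 and 0.080). The mean of 6330415G19Rik was 5.845 in the double knockout and 5.874 in the ApoE knockout, barely above the receptor gene level. A highest r picked from 13498 genes over 10 arrays can be high through the picking alone, and none of these was tested.

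The rest of the pathway was read from 5 further lists with 59 of 70 genes measured, of which 6 rose, 11 fell and 42 did not pass. The median difference was -0.10, against 0.10 over all genes and 0.007 without the lowest 40% by mean level. Of all genes 30.3% passed, 22.8% higher and 7.53% lower. Of those above the receptor gene level in both groups 23.6% passed, 12.8% higher and 10.8% lower. These shares stand beside the counts of each list below. Among the other enzymes of the glycolytic chain 1 of 8 rose and none fell. That was Pgam2, the muscle phosphoglycerate mutase (0.26, SE 0.09, adjusted p = 0.0498), whose means of 5.69 in the double knockout and 5.43 in the ApoE knockout lay at the receptor gene level, and its call was lost after quantile normalization (0.03, adjusted p = 0.83). The 1428 receptor genes themselves had a median difference of 0.29, with 425 higher and 12 lower, and the Pgam2 difference lies below that median. Gapdh lay between 12.62 and 12.68 in the double knockout and between 12.50 and 12.93 in the ApoE knockout and did not pass (-0.06, SE 0.08, adjusted p = 0.61). Pgk1, which makes the first ATP of the pathway, did not pass (-0.35, SE 0.13, adjusted p = 0.067), nor did Tpi1 (-0.22, SE 0.09, adjusted p = 0.087). Over the 8 enzymes the median difference was -0.01.

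In the list of other isozymes and carriers 2 of 12 genes rose (Slc16a7 and Emb) and 1 fell (Slc2a3), with a median of -0.15. In the list of branch points and pyruvate control 1 of 14 fell and none rose (median -0.15). That was Txnip, which holds down glucose uptake and is itself induced by glucose. It had values of 11.50, 11.45, 11.47, 11.55 and 11.62 in the double knockout aortas, against 11.86, 11.86, 11.89, 11.95 and 11.93 in the ApoE knockout aortas. No value overlapped, and Txnip fell by 0.38 (SE 0.06, adjusted p = 0.0014). In the pentose phosphate list, the side route that makes NADPH and ribose, 3 of 5 genes fell and none rose (median -0.36). Pgd, the NADPH-forming phosphogluconate dehydrogenase, fell by 0.79 (SE 0.20, adjusted p = 0.014), the epimerase gene Rpe fell by 0.36 (SE 0.09, adjusted p = 0.0095) and the transaldolase gene Taldo1 fell by 0.50 (SE 0.16, adjusted p = 0.035). With the smooth muscle score as a term all 3 calls were lost, at -0.54 for Pgd (adjusted p = 0.22), -0.31 for Rpe (adjusted p = 0.13) and -0.30 for Taldo1 (adjusted p = 0.39). In that fit 1809 of all 22180 genes passed, against 6721 without the term, and the SE rose to 0.27 for Pgd and 0.12 for Rpe. With the brown adipocyte score as a term all 3 passed (limma adjusted p = 0.015 each). The Taldo1 call was also lost after quantile normalization (adjusted p = 0.055) and without any one of ApoE knockout replicates 1 to 4 or double knockout replicates 3, 4 and 5 (adjusted p from 0.059 to 0.081). White adipocyte markers stood beside this list with 0 of 10 called, at 8.72 to 9.73 in the double knockout and 8.89 to 10.33 in the ApoE knockout, and their part was not tested.

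The hypoxia pathway, which is known to switch on Slc2a1, Hk2, Pfkfb3, Ldha and Slc16a3, had genes called in both directions. Of 20 measured genes 3 rose, 6 fell and 11 did not pass (median 0.01). The 3 that rose, Hif1a, Car9 and Vhl, all lost the call after centring, with Car9 at 0.06 (adjusted p = 0.63) and Vhl at 0.0006 (adjusted p = 0.996), and Car9 and Vhl also lost it after quantile normalization (adjusted p = 0.30 and 0.15). Epas1, the HIF subunit of endothelium and other cells, had values of 11.05, 11.15, 11.03, 11.32 and 11.47 in the double knockout aortas, against 11.57, 11.64, 11.49, 11.64 and 11.50 in the ApoE knockout aortas, and fell by 0.36 with no overlap (SE 0.09, adjusted p = 0.013). Hif1a, the subunit active in most cells, rose by 0.31 (SE 0.07, adjusted p = 0.0064), but its probe sets disagreed: with that of the highest variance the difference was -0.05 (adjusted p = 0.76), and the call was lost after centring (0.10, adjusted p = 0.30). Mxi1, a Myc antagonist and HIF target, fell by 0.49 (SE 0.07, adjusted p = 0.00093), and with the mean of its probe sets the difference was -0.30 (adjusted p = 0.020). Ddit4, a stress- and hypoxia-induced inhibitor of mTORC1, fell by 1.01 (SE 0.28, adjusted p = 0.020), with values of 7.22, 6.999, 7.75, 7.73 and 7.58 in the double knockout aortas, against 7.61, 8.09, 8.42, 8.90 and 9.28 in the ApoE knockout aortas, which overlap only through ApoE knockout replicate 1. Egln1, Bnip3 and Arnt were also called lower, and Arnt lost the call after quantile normalization (adjusted p = 0.12). With the smooth muscle score as a term, 13 of the 17 genes called in the 5 lists lost the call, and Slc2a3, Txnip, Mxi1 and Ddit4 did not. Calls over all genes went from 6721 to 1809 in that fit. With the brown adipocyte score as a term 3 of the 17 lost the call, namely Pgam2, Arnt and Vhl. Of the 17, 7 lost the call without some single array, namely Pgam2, Taldo1, Egln1, Bnip3, Car9, Arnt and Vhl, with adjusted p of at most 0.11.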

How the data were processed

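Per the labels' protocols, total RNA of each aorta was labeled and read on 1 Mouse Gene 2.0 ST array. The deposited values are log2 expression values, 1 per probe set and array. The base was inferred from their range, limma is named per the submitters' processing notes, and the sources used here do not give the background correction or normalization. There were 41345 probe sets: 23521 with a single gene symbol, 1814 with more than 1 (left unnamed) and 16010 that carry no name here. The probe set with the highest mean was kept for each of 22180 genes. Of the members, 9 had 1 such probe set and Slc2a1 had more. Hk1 and Slc16a3 are also named on probe sets shared with Hk1os and Csnk1d, which were left out and not read.

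The fit used limma 3.58.1 (lmFit, eBayes) under R 4.3.3. Genotype was its single term, tests were two-sided and p-values were adjusted over the whole table by Benjamini-Hochberg, with calls at 0.05. Differences are double knockout minus ApoE knockout. An adjusted p of a gene comes from this fit, and SE is its standard error. Relations to marker scores used all 14400 permutations within the groups. The number of arrays limits the precision, and p-values measure the spread between aortas that the labels call biological replicates. Figures used matplotlib 3.10.9. The code was tested on simulated data.

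The members and lists were chosen with earlier results of these data known. Named are the members, Apoe and Il17a, the called genes of the lists, others of the lists as values, up to 3 markers a list and the genes most like Pfkp and Pfkl. Genes of the lists that did not pass were chosen after their values were seen. Marker lists were a mean log2 value over their genes, and Pdk4 stands both in the brown adipocyte list and among the pyruvate control genes. Alternatives covered normalization, centring, a filter on dim genes, probe set rules, the prior, array weights, a replicate block, a threshold of 0.01 and leaving out each array. Marker scores as terms were added later. The lists of B cell, fibroblast, skeletal muscle and cardiac muscle markers were measured too. In them, 0, 2, 2 and 6 genes rose and 4, 0, 0 and 0 fell.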

Additional observations from a re-analysis of the deposited data

Results flagged for a closer look

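One value stood apart from the rest of its group by Dixon's ratio. Hk1 in ApoE knockout replicate 5 was 7.86, with a gap to the next highest ApoE knockout aorta that was 0.774 of the group's range, above the critical value for 5 samples. Of 20 groups of values examined (10 members in each of the 2 genotypes) 1 passed, and chance flags about 1 in 20. The same aorta had the highest Pfkm, Pfkfb3, Pfkp and Slc16a3 of the ApoE knockout and the lowest brown adipocyte score, 8.39. Without it the Hk1 difference was -0.15 (adjusted p = 0.12), and the groups still did not overlap.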

How the results depend on the processing

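Across 21 alternatives for each of the 10 members, 172 of 210 values kept their direction and their side of the threshold, 29 kept the direction and lost the call, 6 gained one and 3 turned the direction. Pfkp lost its call in 2 of 21. Part of this agreement was fixed in advance. The 9 members with 1 probe set have the same difference under either probe set rule. The filter on dim genes, the prior, the replicate block and the threshold of 0.01 leave every difference unchanged, so no direction could turn there. The median difference of all genes was 0.10 as deposited, -0.02 after quantile normalization and -0.11 after centring, and 75.1%, 44.4% and 22.8% of the called genes were higher, so directions near 0 depend on the scaling. With no array left out, the directions that turned were Slc2a1 after centring (-0.10), Hk2 with the brown adipocyte score (0.0806), Hif1a with the probe set of highest variance (-0.0509), Il17a after quantile normalization (-0.0193) and Pfkfb3 minus Pfkfb4 after quantile normalization (0.0818). For centring, members called were 0 higher and 7 lower, list genes 0 and 27, and all genes 1669 and 5641, against 1 and 3, 6 and 11, and 5050 and 1671 as deposited. With the smooth muscle score as a term, 0 members were higher, list genes were 1 higher and 4 lower, and all genes 1398 and 411. At an adjusted p of 0.01, 0 members were lower, list genes were 2 and 4, and all genes 2336 and 634. List genes higher were 3 after quantile normalization and 3 with the mean of probe sets, and all genes higher were 1982 after quantile normalization and 1935 without dim genes. In each of these the cause was not tested.

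Leaving out each array in turn gave 1 member higher throughout, 0 to 3 members lower, 3 to 6 list genes higher and 8 to 16 lower, and 3935 to 5097 genes higher and 1121 to 1925 lower. The members lower were 0 without ApoE knockout replicate 4 or double knockout replicate 4, and 3 without ApoE knockout replicate 2 or double knockout replicate 3. Directions turned for Hk2 without ApoE knockout replicate 1 (0.14), for Hk2 minus Hk1 without 2 arrays, for Pfkfb3 minus Pfkfb4 without 3 and for Ldha minus Ldhb without 1. Pfkl minus Pfkm passed without ApoE knockout replicate 5 (-0.59, exact permutation, adjusted p = 0.048). Ranges were -0.20 to 0.14 for Hk2, -0.0489 to 0.34 for Hk2 minus Hk1, -0.59 to -0.25 for Pfkl minus Pfkm, 0.845 to 1.16 for Pfkp minus Pfkl, -0.16 to 0.12 for Pfkfb3 minus Pfkfb4, -0.135 to 0.0376 for Ldha minus Ldhb, 0.0727 to 0.58 for Slc16a3 minus Slc16a1, -0.14 to -0.02 for Pkm, 0.06 to 0.13 for Slc2a1, -0.23 to -0.10 for Pfkm and -0.29 to -0.13 for Ldha. Arrays with the same replicate number correlated at -0.13 to 0.26 in their deviations and 3 of 5 matched their own number best. These values cannot decide whether the numbers are pairs. The labels name no pairing, and the main fit used none. With the replicate number as a block, members called were 1 higher and 2 lower, list genes 7 and 15, and all genes 4810 and 1784. Slc16a3 lost its call there (-0.29, adjusted p = 0.053), as did Arnt (adjusted p = 0.083) and Vhl (adjusted p = 0.067). No measure of signal over background was given for the probe sets, which limits the dimmest genes, such as Pgam2.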

Other observations

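Slc2a1 had a further probe set, which lay at 4.80 to 5.22 in the double knockout and 4.88 to 5.14 in the ApoE knockout, below the receptor gene level, while the one used above lay at 9.69 to 9.97 and 9.60 to 9.84. Among the windows before the starts of other members, the first of Ldha held ACGTG 5 times and the E-box 2 times, those of Hk2 and Slc2a1 held ACGTG 2 times and 1 time, and those of Hk1 held it 0 times.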
